A study of Sus scrofa with 20 samples.

Results

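Digital gene expression (DGE) tags of pig longissimus muscle were searched for those whose level moved least from the embryo to the finished animal. The set held 200 tags. It was chosen by measured values: of 801159 distinct clean tags in the series, 2381 reached at least 10 TPM (copies per 1000000 clean tags of a library) in each of 18 libraries, and the 200 with the lowest standard deviation (SD) of log2 TPM over those 18 were taken. The Landrace (LR) libraries of 120 and 180 days post natum (dpn) had no part in the choice, and the set was then read in them as a reference set would be. In the 18 libraries that chose them the tags were level by construction. In the LR libraries of 120 and 180 dpn most of them were not. There 118 and 121 of 200 (59.0% and 60.5%) lay more than 2-fold below their 18-library mean. These shares were near the 54.1% and 57.7% of all 2381 tags, so by this count the shift was not particular to the members. The description "stable from embryo to market weight" thus did not hold in these libraries. They had no replicates and also stood apart in features of their tags given below. Whether the shift belongs to breed, age or library was not tested. For the libraries of Lantang (LT) and of LR up to 90 dpn the description held by the way the tags were chosen.

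Longissimus muscle was sampled in both breeds, LR a lean and fast-growing breed and LT a native Chinese breed with fat meat, at 35, 49, 63, 77 and 91 days post coitus (dpc) and at 2, 28, 90, 120 and 180 dpn. Each library pooled equal amounts of RNA from 3 animals, which were male embryos or fetuses before birth and boars, castrated after 2 weeks, afterwards. No treatment was given, and each breed and stage gave 1 library. There were thus 20 libraries without replicates: the spread between animals of a pool was not measured, and a difference between libraries of a stage or breed cannot be told apart from a difference between pools or preparations.

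A DGE tag is read next to the recognition site CATG of the enzyme NlaIII, usually the site nearest to the poly(A) tail of a transcript, so that 1 transcript molecule gives 1 tag. Tags from sites further upstream also occur. Counts are scaled by the library total, and a set of transcripts with a steady level, the role that housekeeping genes play in PCR, is one way of asking whether that total is a fair scale. In muscle a few contractile and metabolic transcripts come to make up much of that total as the animal grows. Tags were not matched to genes, since no pig transcript sequences were used here; members are named by sequence, and muscle markers could not be looked up.

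The 10 members of lowest SD are shown first because they are the ones a reader would pick as references. Capitals mark CATG, at the start of every tag and wherever it occurs again, and the 17 bases that follow the first site are otherwise in lower case. Each line is 1 tag, 5′ to 3′.
Rank 1: CATGcctcggtattacgagga
Rank 2: CATGtataaattaaaacgttt
Rank 3: CATGatccaactgtgtaattt
Rank 4: CATGagcagtaaataatgagg
Rank 5: CATGtagaattttaaaacaat
Rank 6: CATGtgataaattctattaag
Rank 7: CATGgCATGcaggtgtctttg
Rank 8: CATGgcaagaagtgtcagagg
Rank 9: CATGtgtatgcaaggaagcca
Rank 10: CATGtcacgggaacggaaaag

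The 5 members that lay lowest in LR at 120 and 180 dpn, and after them the 5 that lay highest, are shown because they mark the ends of the range that the set took in those libraries.
Rank 153: CATGaaacgacgcCATGcaaa
Rank 17: CATGaccgtgcgcatcgtcaa
Rank 125: CATGgtgaaatagattatgaa
Rank 100: CATGtgtttggaaatgtCATG
Rank 18: CATGgtaaatttttcgttgca
Rank 191: CATGttgtttataagtcaaag
Rank 99: CATGtgagtttgtgccttttt
Rank 106: CATGaggctcctctggttggc
Rank 176: CATGttaagaaaaataaattt
Rank 162: CATGcagtccaacaaattgta

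Library totals ran from 2157111 clean tags (LR 90 dpn) to 5322022 (LT 91 dpc), so that 3 counts, taken here as the detection floor, stood for 0.564 to 1.39 TPM. LR 120 and 180 dpn were neither shallow nor deep, with 3430462 and 3617816 clean tags. They stood apart from the other libraries in a feature of the tags themselves: tags with a further CATG took 0.116% and 0.224% of their clean tags, and 2.14% to 3.80% in the other 18. The 100 most abundant tags took 53.6% and 50.3% of the clean tags in these libraries and 12.5% to 43.9% in the 18, where the share was higher after birth than before. The part that either feature has in the results below was not tested.

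Over the 18 libraries the members' SD of log2 TPM ran from 0.244 to 0.470, with a median of 0.420, against a median of 0.763 for all 2381 tags above the minimum level. The counting error of a member had a median SD of 0.136 on the same log2 scale, and the observed SD was a median of 3.01 times as large, so most of the remaining spread lay above counting error even in these least variable tags. The highest of the 18 values was 1.76 to 4.13 times the lowest, with a median ratio of 2.82. The members were not the most abundant tags: the median member had a geometric mean of 31.8 TPM and the median eligible tag 50.8 TPM.

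The limit of the set fell in a dense run of tags. The last 2 members inside it, CATGcccacaaggtactccgt and CATGtaactaagaatCATGgc, had SDs of 0.4701 and 0.4701, and the first 2 tags outside it, CATGggccgcgtgatccgtgg and CATGctctttttactaaccag, had 0.4703 and 0.4706. Their levels differed far more than their SDs, with 18-library medians of 280, 20.7, 80.3 and 153 TPM.

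Within the 18 libraries the extremes gathered in a few libraries, while no member's mean over a class of breed and age was past 1 on the log2 scale. The mean log2 ratio of a member over the 5 LT postnatal libraries lay between −0.40 and 0.55, and over the 5 LR prenatal libraries between −0.37 and 0.52. Between the postnatal and the prenatal libraries the members differed by −0.68 to 0.63, and none was past 1 on the log2 scale, whereas 33.3% of all eligible tags were; the rule acts on this difference and it is no test. LT 90 dpn held the lowest of the 18 values for 43 members, LT 2 dpn the highest for 38 and LT 35 dpc the highest for 37. In LR 63 dpc 1 member was lowest and 1 highest, the fewest of the 18.

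**Figure D1:**
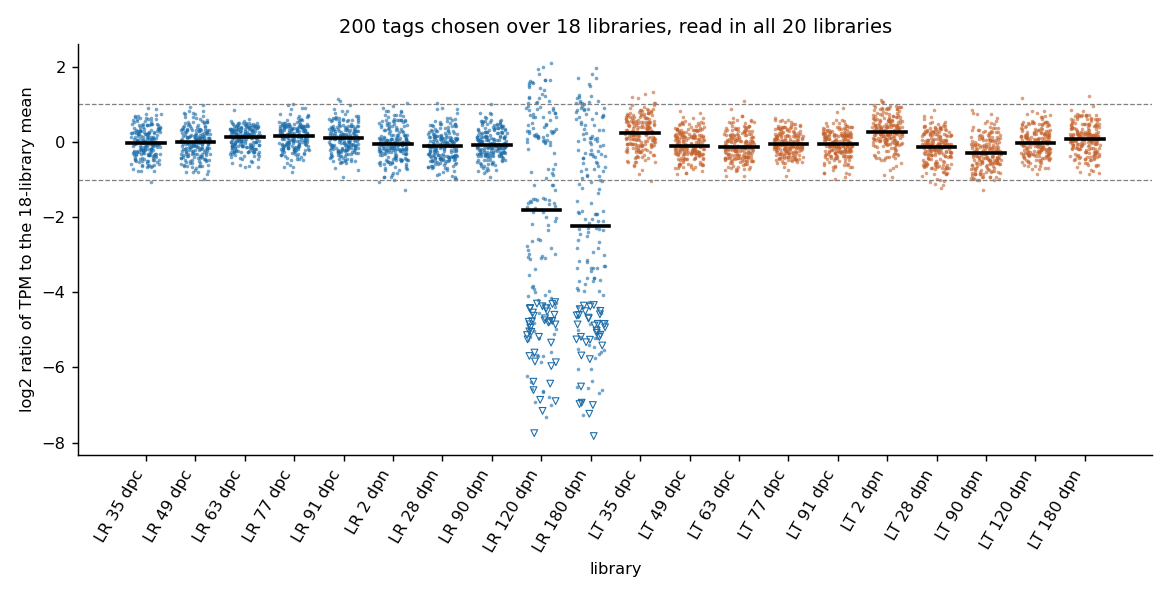
Log2 ratio of TPM to the mean of the 18 choosing libraries (y axis) for the 200 members in each of the 20 libraries (x axis; blue LR, orange LT). Points are tags, black bars are medians, dashed lines mark 2-fold, and open triangles are tags with 0 counts drawn at 3 counts. The members lie in a narrow band in 18 libraries and run from about 2 to below −7 in LR 120 and 180 dpn.

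Whether such a set keeps its level in a library that did not choose it was asked by choosing 200 tags again without each of the 18 libraries in turn and reading them in the library left out. Each of these sets shared 157 to 193 tags with the members, and 138 members were chosen in all 18 rounds. In the library left out, 1 to 49 of the 200 tags lay past 2-fold of the mean of the other 17, with a median of 9.5. The shares were 0.5% in LT 77 dpc and 24.5% in LT 90 dpn, and for all eligible tags in the same libraries 13.4% and 43.5%. None of the tags had a count of 0 in the library left out, and their share past 2-fold was below that of all eligible tags in each of the 18 libraries. A chosen set was thus steadier than the rest in libraries it had not been chosen on, with the most tags past 2-fold in LT 90 dpn (49), LT 2 dpn (36) and LT 35 dpc (25).

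LR 120 and 180 dpn were read in the same way and gave a different picture. In LR 120 dpn 142 of 200 members (71.0%) lay past 2-fold, and of all eligible tags 69.6% did. In LR 180 dpn the numbers were 138 (69.0%) and 72.3%. The set was therefore no steadier in these libraries than the tags it had been picked from. Neither library had to meet the minimum of 10 TPM, nor did a library left out of the 18.

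**Figure D2:**
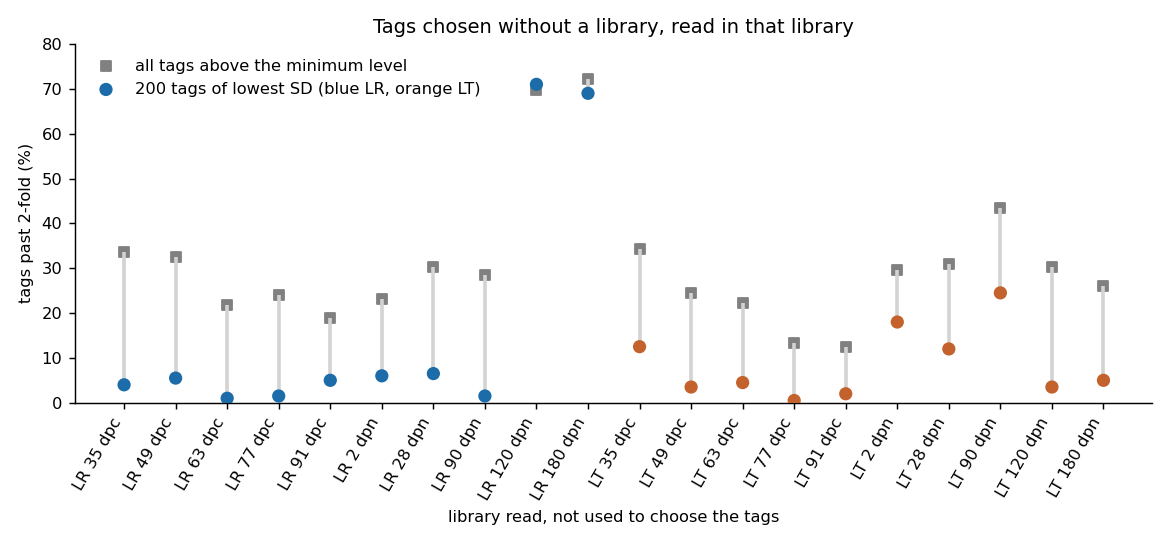
Percentage of tags past 2-fold (y axis) in a library that had no part in choosing them (x axis). Coloured circles are the 200 tags of lowest SD chosen without that library, and grey squares are all tags above the minimum level. Circles lie below squares in 18 libraries, from 0.5% to 24.5%, and beside them in LR 120 dpn (71.0%) and LR 180 dpn (69.0%).

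By direction, 118 members (59.0%) were more than 2-fold lower and 24 (12.0%) more than 2-fold higher in LR 120 dpn. The background over the 2381 eligible tags was 54.1% lower and 15.5% higher. In LR 180 dpn 121 members (60.5%) were lower and 17 (8.5%) higher, against a background of 57.7% and 14.6%. The members' shares were near the background in both directions. The median log2 ratio of the members was −1.81 in LR 120 dpn and −2.23 in LR 180 dpn, and over the eligible tags −1.40 and −1.63. The SD over members was 3.40 and 3.16 with a count of 0 read as 0.5 counts, 2.73 and 2.55 with these tags at the floor, and 0.348 to 0.636 in the libraries left out of the 18. The medians were the same with the tags at 0 set at their bound of 3 counts.

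Both libraries were set against the same 18-library mean, so counts over both share that reference and are a description. A total of 113 members were more than 2-fold lower in both, 12 were higher in both, 45 stayed within 2-fold in both, and none was lower in one and higher in the other. As shares these were 56.5%, 6.0% and 22.5% of the members, beside 51.4%, 10.5% and 20.3% of the eligible tags. The count of members below the lowest of their 18 values was 123 in LR 120 dpn, 126 in LR 180 dpn and 119 in both, and 32, 24 and 21 were above the highest. The rule picked members for a narrow 18-library range, which makes it easy to fall outside. Their median ratio of highest to lowest value was 2.82, against 6.54 for the eligible tags. Eligible tags outside their own range were not counted, so nothing about the members is read from these counts. In LR 120 dpn 39 members had 0 counts, in LR 180 dpn 33, and 24 had 0 in both. These were 19.5%, 16.5% and 12.0% of the members, beside 12.4%, 12.2% and 8.95% of the eligible tags. The 24 had at least 28 counts in each of the 18 libraries, and in LT 120 dpn, of the same age, they ran from 13.1 to 185 TPM with a median of 23.3 TPM. In LR 90 dpn, the preceding stage, their range was 13.0 to 206 TPM, so they were counted in every library but these. At the floor of 3 counts per library the 39 members were at least 19.2-fold to at least 216-fold lower in LR 120 dpn, and the 33 members at least 20.2-fold to at least 227-fold lower in LR 180 dpn.

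**Figure D3:**
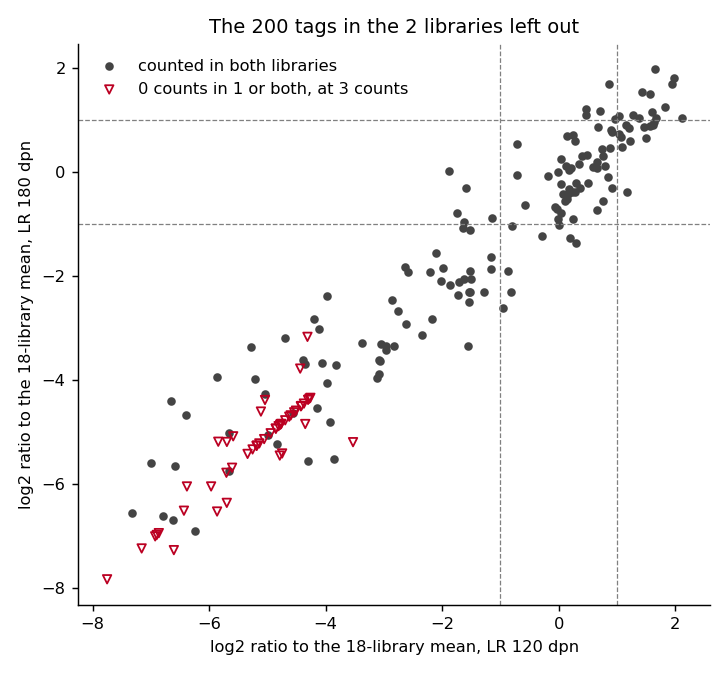
Log2 ratio to the 18-library mean in LR 120 dpn (x axis) and LR 180 dpn (y axis) for each of the 200 members. Filled points were counted in both libraries, open triangles had 0 counts in at least 1 and are drawn at 3 counts, and dashed lines mark 2-fold. A cloud of 45 members lies inside the lines, 113 lie below them on both axes and 12 above them on both.

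The 10 members of lowest SD split into 6 that were lower in both libraries and 4 that stayed within 2-fold. The tag of rank 1, CATGcctcggtattacgagga, had a lowest, median and highest value of 24.1, 35.1 and 42.6 TPM over the 18 libraries, and 6.70 TPM in LR 120 dpn and 3.87 TPM in LR 180 dpn. Both values lay below all 18, at 0.198 and 0.114 of the 18-library mean. The tag of rank 3 had 32.9, 44.8 and 59.7 TPM in the 18 libraries and 0.875 and 1.38 TPM in LR 120 and 180 dpn, from 3 and 5 counts. The tag of rank 4, the most abundant of the 10, had 124, 212 and 266 TPM and then 24.5 and 20.5 TPM. In both tags the groups of libraries did not overlap.

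The tags of rank 8 and 10 behaved likewise. Rank 8 had 46.5, 59.4 and 98.9 TPM in the 18 libraries and 3.79 and 4.98 TPM in LR 120 and 180 dpn. Rank 10 had 17.2, 29.2 and 38.9 TPM and then 7.0 and 7.74 TPM. The tag of rank 7 is described below with its overlapping partner.

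The other 4 of the 10 kept their level. Rank 2 had 40.2, 58.1 and 76.6 TPM over the 18 libraries, and 89.8 and 65.8 TPM in LR 120 and 180 dpn. Rank 5 had 62.5, 88.6 and 134 TPM and then 92.7 and 65.5 TPM. Rank 6 had 46.2, 62.1 and 81.5 TPM and then 58.3 and 38.4 TPM. In each of these tags at least 1 of the 2 values lay inside the range of the 18. Rank 9 had 64.5, 96.1 and 131 TPM and then 150 and 171 TPM, above all 18 values but within 2-fold of their mean.

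At the low end, all 5 tags were among the 24 members with 0 counts in both libraries. Their 18-library levels were the highest of these 24. Their larger bounds therefore reflect those levels and not lower counts in LR 120 and 180 dpn. CATGaaacgacgcCATGcaaa had 111, 194 and 305 TPM in the 18 libraries, so that its level was at least 216-fold lower in LR 120 dpn and at least 227-fold lower in LR 180 dpn. CATGaccgtgcgcatcgtcaa, rank 17 by SD, had 85.6, 122 and 186 TPM and was at least 143-fold and at least 151-fold lower. A low SD over the 18 libraries and a count of 0 in the other 2 thus occurred in the same tag. The remaining 3 were at least 86.4-fold lower in LR 120 dpn, and their 18-library medians were 106, 114 and 75.9 TPM.

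At the high end the departures were smaller. CATGtgagtttgtgccttttt had 10.3, 22.1 and 30.2 TPM in the 18 libraries, 84.0 TPM in LR 120 dpn and 40.1 TPM in LR 180 dpn, 4.32 and 2.06 times the mean. CATGcagtccaacaaattgta had 10.1, 18.4 and 26.6 TPM and then 71.1 and 63.3 TPM. CATGaggctcctctggttggc had 45.3, 67.0 and 117 TPM and then 227 and 284 TPM. All 5 lay above their 18 values in both libraries, by ratios to the mean of 2.06 to 4.32.

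The 3 most abundant members did not move together. CATGgggtttttattattttt, with 1649, 2505 and 3612 TPM in the 18 libraries, had 5548 TPM in LR 120 dpn and 1888 TPM in LR 180 dpn. CATGattatttttgtaatctg had 668, 1010.5 and 1820.4 TPM and then 2274 and 1727 TPM. CATGtgaaaccttttttaaga had 239, 413 and 661 TPM and then 3.21 and 8.57 TPM. The first was above its range in LR 120 dpn and inside it in LR 180 dpn, the second the same, and the third was far below in both.

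Letters of the tags, which the rule did not use, were set beside the levels in LR 120 and 180 dpn as a description. A further CATG in the 17 bases was present in 4 members and in 66 eligible tags, and in 3.94% of all distinct tags. All 4 members were lower in both libraries, and 3 of them had 0 counts in both. Among the eligible tags 63 of 66 were lower in both and 43 had 0 counts in both. Without these 4, 109 of 196 members (55.6%) were lower in both, beside 50.2% of the eligible tags without a further CATG. Whether the scarcity of such tags in these libraries bears on the other members was not tested.

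Rank 7, CATGgCATGcaggtgtctttg, is the only member whose further site leaves enough overlap to look for the tag that starts there. The pair overlapped over 16 bases and is printed because the second tag begins at the second CATG of the first.
Member, rank 7: CATGgCATGcaggtgtctttg
Following tag: CATGcaggtgtctttgctatt
The member had 24.0, 33.8 and 46.4 TPM in the 18 libraries and 5.54 and 8.85 TPM in LR 120 and 180 dpn. The following tag had 1.57, 4.42 and 7.70 TPM in the 18 and 76.1 and 33.7 TPM in LR 120 and 180 dpn. The member was the more abundant in the 18 and the following tag in the other 2. Of the 13 eligible tags with a further CATG that overlapped a following tag by at least 15 bases, 11 lay below their 18-library range in both libraries. The following tag was the more abundant of the pair in 3 of 13 by the 18-library median, in 10 in LR 120 dpn and in 10 in LR 180 dpn. The following tag lay above its own 18-library range in both libraries in 3 of the 13 pairs, and in 2 of them the upstream tag also lay below its range, so most pairs did not show the pattern of rank 7 in full. Several following tags can start with the same bases, and the most abundant was taken.

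AATAAA or ATTAAA, the letters of the poly(A) signal, occurred in the 17 bases of 7 members, of 102 eligible tags and of 2.39% of all distinct tags, searched on the tag strand only. Of the 7 members 1 was lower in both libraries, and of the 102 eligible tags 18 (17.6%), against 112 of 193 members and 1206 of 2279 eligible tags (52.9%) without these letters. Rank 2, CATGtataaattaaaacgttt, which kept its level, was 1 of the 7. Base composition was counted in the same way. Of the 104 members with 0 to 6 G or C in the 17 bases 49 (47.1%) were lower in both, and of the 96 with 7 to 17 G or C 64 (66.7%). For eligible tags the shares were 45.6% and 55.8%. By rank of SD, 51 of the first 100 members and 62 of the last 100 were lower in both. No member had a more abundant tag 1 base apart, which 34 eligible tags did.

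The levels of LR and LT at 120 and 180 dpn were compared over all tags with edgeR's quasi-likelihood test, in which the ages stood in for replicates of a breed. The rule had used the LT libraries, where each member had to reach 10 TPM and keep near its mean, and not the LR libraries. The counts of members are therefore a description from which nothing is read, and no p-value is given for single members. Of the 200 members, all of which were tested, 115 were lower in LR (57.5%) and 9 higher (4.5%) at an adjusted p below 0.05, and 76 were not called. Over all 26234 tags tested, 45.4% were lower and 19.4% higher, and over the 2381 eligible tags 49.8% and 9.32%. The median log2 fold change of LR over LT was −2.20 for the members, −1.36 for the eligible tags and −0.95 for all tags tested. The 48 members with 0 counts in at least 1 of the LR libraries all had fitted values below the members' median, which therefore does not rest on how 0 was read.

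Of the 10 members of lowest SD 6 were called lower in LR and 4 were not called, beside 49.8% of the eligible tags called lower and 9.32% higher. The rule had fixed the LT side of this comparison for these 10, so the count is a description from which nothing is read. Rank 1 had 41.7 and 38.5 TPM in LT 120 and 180 dpn against 6.70 and 3.87 TPM in LR, a log2 fold change of −3.12. Rank 8 had 57.6 and 98.9 TPM in LT against 3.79 and 4.98 TPM in LR, a log2 fold change of −4.31. The 5 highest and 5 lowest members had been picked by their levels in these same LR libraries, so their calls are no test and are not counted here.

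The split of the calls differed between scales. With total scaling 112 members were lower and 15 higher, and of the eligible tags 48.4% and 12.6%. With age as a replicate block 110 members were lower and 0 higher, where 119 passed an unadjusted p of 0.05, and of the eligible tags 46.6% and 5.59%. With the libraries scaled by the members themselves 77 members were lower and 77 higher, a balance that this scaling fixes, since it sets their median near 0. Over the eligible tags that scale gave 32.3% lower and 45.6% higher, and the median log2 fold change of all tags moved from −0.95 to 1.27. Without LT 120 dpn the median log2 fold change was −2.20 for the members and −1.44 for the eligible tags. Without LT 180 dpn it was −2.36 and −1.35.

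Within LR the libraries of 120 and 180 dpn, neither of which chose the members, were compared tag by tag with a 2-sided exact binomial test, which compares 2 libraries and not 2 ages. Of the 176 members found in either, 33 were lower at 180 dpn (18.8%) and 8 higher (4.55%). The background over all 106299 tags was 2.1% lower and 3.16% higher, and over the 2168 eligible tags found it was 20.1% and 12.6%. This split is that of total scaling: with TMM 24 members were lower and 11 higher, and with the members as the scale 10 were lower and 19 higher. Of the 2168 eligible tags 346 were lower and 325 higher with TMM, and 198 and 470 with the members as the scale. The direction thus turned with the scale for members and eligible tags alike, and the turn is no result about the members. The 152 members counted in both libraries had a median log2 ratio of −0.30 with an SD of 0.793, and 123 were within 2-fold. The 2008 eligible tags counted in both had a median of −0.173 with an SD of 0.910, and 1484 were within 2-fold. In LT, whose libraries chose the members, the members' median over the same ages was 0.07 with an SD of 0.458. With an assumed coefficient of variation of 0.4 between pools in edgeR's exact test, 0 members were called, 1 of the 2168 eligible tags and 112 of all tags (0.105%).

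The same exact binomial test was run from LR 90 to 120 dpn. LR 90 dpn was among the libraries the rule used, so the members had to be level there, and nothing is read from these counts. With total scaling 117 members were called lower (58.5%) and 39 higher (19.5%), against a background of 10.1% lower and 4.77% higher over 116155 tags and of 52.1% and 26% over the eligible tags. With the members as the scale 87 were lower and 80 higher, and of the eligible tags 35.3% and 50.1%. With the assumed coefficient of variation of 0.4 edgeR's exact test called 75 members (37.5%), all lower, and 32.2% of the eligible and 3.32% of all tags.

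As a scale, the members gave factors near 1 in the libraries that chose them. A library's factor is the median ratio of the members' TPM to their 18-library mean. A factor below 1 says that the median member lay below its own 18-library mean. It does not give the share of the total that the members took together. Over the 18 libraries it ran from 0.811 (LT 90 dpn) to 1.21 (LT 2 dpn). With the members chosen without the library read, the range widened to 0.694 and 1.36, in the same libraries, with an SD of 0.225 on the log2 scale. In LR 120 dpn the factor was 0.285 and in LR 180 dpn 0.213, outside both ranges. With the members chosen without LT 28 dpn the factor of LR 120 dpn was 0.177.

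Factors computed over all tags took another course. TMM factors were 1.15 to 1.26 in the LR prenatal libraries, 1.06 to 1.31 in the LT prenatal libraries, and fell to 0.732 in LR 90 dpn and 0.644 in LT 90 dpn. The members gave 0.942 and 0.811 there. LR 120 and 180 dpn had TMM factors of 0.648 and 0.595 and median-of-ratios factors of 0.702 and 0.651, so by these scales the pair lay next to LT 90 dpn. Choosing 200 tags after TMM scaling kept 81 of the members, and these gave 0.522 and 0.409 for LR 120 and 180 dpn.

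**Figure D4:**
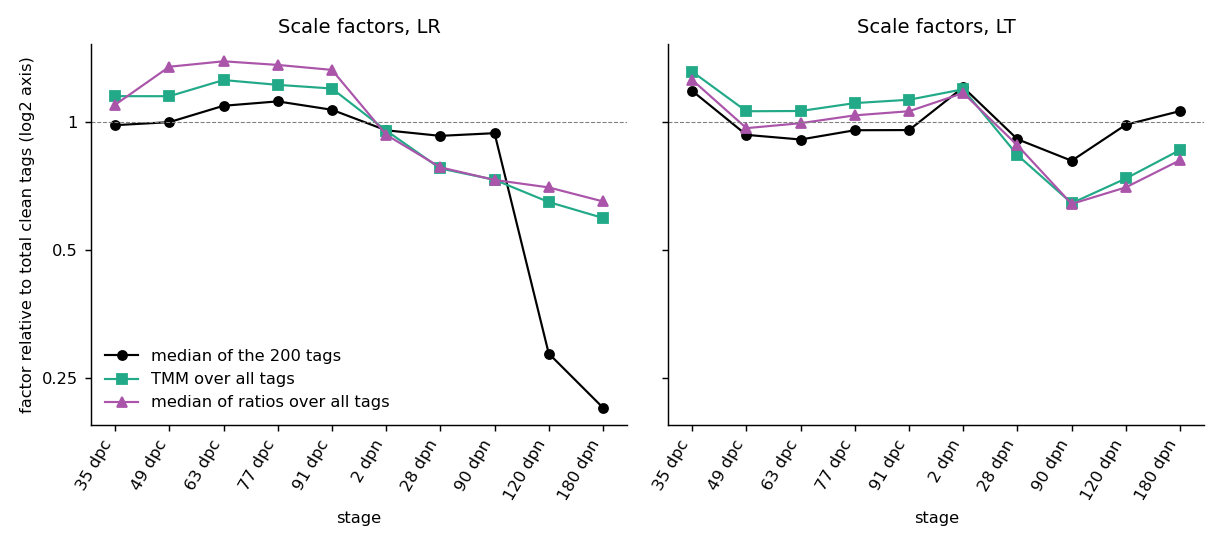
Scale factor relative to total clean tags (y axis, log2 scale) by stage (x axis) in LR (left) and LT (right). Circles are the median of the 200 members, squares TMM factors and triangles median-of-ratios factors. The members' factor stays between 0.811 and 1.21 in 18 libraries and drops to 0.285 and 0.213 in LR 120 and 180 dpn, where the other scales give 0.595 to 0.702.

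The factor of LR 120 dpn depended on how the members were combined. The sum of the members took 1.09% to 1.75% of clean tags in the 18 libraries, 1.45% in LR 120 dpn and 0.923% in LR 180 dpn, which gave factors of 1.06 and 0.675. The most abundant member, CATGgggtttttattattttt, held 38.2% of the sum in LR 120 dpn and 12.7% to 23.3% in the 18. Without it the sums gave 0.804 and 0.657. The mean of the log2 ratios gave 0.153 and 0.147. The sum thus put LR 120 dpn inside its 18-library range of 0.795 to 1.28, while the median and the mean put it below theirs.

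Applied to the comparisons of adjacent stages, the scales changed the direction of calls more than their number. Over 18 comparisons 205207 calls were made with total scaling, 39.3% of them higher at the later stage. With the members as the scale 215196 were made, 46.5% higher, and with TMM 204135, 45.9% higher. Without the comparisons that hold LR 120 or 180 dpn, the shares over 16 comparisons were 39.3%, 40.9% and 45.8%. The share moved by more than 10 percentage points against total scaling in 8 of 18 comparisons with the members and in 8 with TMM.

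Single comparisons moved further. From LR 90 to 120 dpn 32.2% of calls were higher at the later stage with total scaling, 38.9% with TMM and 81.8% with the members. From LT 2 to 28 dpn, which does not hold the libraries left out, the shares were 30.0%, 58.4% and 52.2%. From LR 35 to 49 dpc they were 33.9%, 33.9% and 33.1%, within 1 percentage point of each other.

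**Figure D5:**
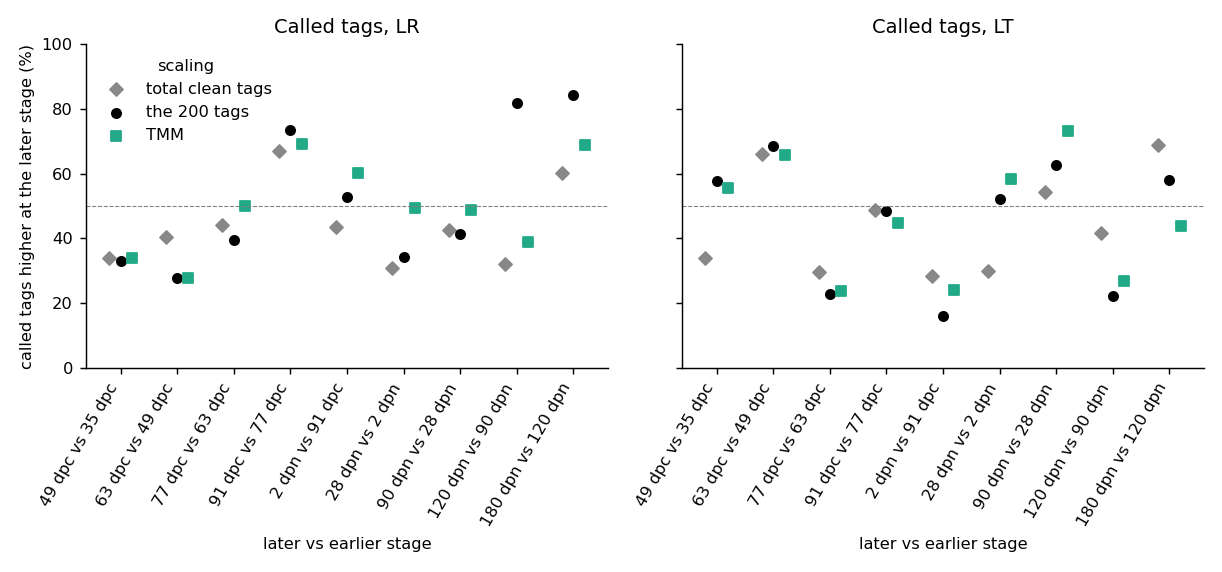
Share of called tags that were higher at the later stage (y axis, percent) for 9 comparisons of adjacent stages in LR (left) and LT (right), with libraries scaled by total clean tags (diamonds), by the 200 members (circles) and by TMM (squares). The dashed line marks equal numbers. The scales differ most from LR 90 to 120 dpn, with 32.2%, 81.8% and 38.9%.

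Sets chosen within 1 breed were less alike than the pooled set. The 200 tags of lowest SD over the 10 LT libraries shared 94 with the members, and those over the 8 LR libraries 80; the breed sets shared 38 with each other. The LT set had a median SD of 0.366 in LT and 0.555 in the LR libraries, and the LR set 0.297 in LR and 0.562 in LT, against medians of 0.785 and 0.795 for all tags above the minimum level. Read in LR 120 dpn the LT set gave a factor of 0.171 and the LR set 0.348, and in LR 180 dpn 0.153 and 0.376. The set chosen on LR alone was no closer to 1 than TMM in either library.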

How the data were processed

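Members and lists were chosen with earlier results of these data known. For each library the authors deposited the counts of distinct clean tags (CATG and 17 bases) after removing adaptor, low-quality and single-copy tags, without normalization. Beside them the authors deposited TPM, copies per 1000000 clean tags. The submitters' processing notes name Bowtie 0.12.3 and the build NCBI36; no mapped values were used here. Groups came from library titles.

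TPM was recomputed from counts; a tag absent from a library was 0, and read as 0.5 counts in log2 ratios. A fold against 0 is a bound at 3 counts. Percentages are plain shares of tags, bounds put 3 counts in place of 0, and neither carries an error estimate. P-values measure the spread between libraries or counting error, not the spread between animals.

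LR and LT at 120 and 180 dpn were compared with edgeR 4.0.16 (quasi-likelihood, TMM, filterByExpr, Benjamini-Hochberg over all tested tags) in R 4.3.3, and with DESeq2 1.42.0 as an alternative. Adjacent stages were compared by a 2-sided exact binomial test (p below 0.009, FDR below 0.02, absolute log2 ratio above 0.5, 0.01 TPM for 0). It compares libraries, without a replicate check. On simulated counts both tests found tags that had been given a changed level, though not all of them. The simulation for the binomial test held counting error only, so it says nothing about the spread between pools. TMM factors used 13216 tags and median-of-ratios factors 14559. Ratios and sets used Python 3.11.15, NumPy 2.4.6, pandas 2.3.3 and SciPy 1.17.1.

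Tags named are the 10 of lowest SD, the 2 on each side of the limit, the 5 highest and 5 lowest in LR 120 and 180 dpn, members with a further CATG, and the 3 most abundant; the following tag was named after its values were seen. Lists of muscle, blood, fat, connective tissue, vessel, immune and reference genes needed transcripts and were not used.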

Additional observations from a re-analysis of the deposited data

Results flagged for a closer look

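The members' scale factor moved in opposite directions in the breeds at the last ages, but this was not particular to them. Among the steps between adjacent stages, both breeds moved the same way only from 63 to 77 dpc and from 2 to 28 dpn. In some of the other steps 1 breed hardly moved, so the sign says little there. The change was 0.024 in LR from 35 to 49 dpc and −0.036 in LT from 49 to 63 dpc. It was 0.001 in LT from 77 to 91 dpc and 0.021 in LR from 28 to 90 dpn. From 91 dpc to 2 dpn the log2 of the factor changed by −0.160 in LR and 0.334 in LT. The change in LR minus that in LT was −0.495 there and −0.530 from 120 to 180 dpn. It was largest from 90 to 120 dpn. From 90 to 120 dpn the log2 of the factor changed by −1.72 in LR and by 0.28 in LT, and from 120 to 180 dpn by −0.42 in LR and 0.11 in LT. With 1 library per breed and age the difference between breeds was not tested, and the LT libraries had helped to choose the members while LR 120 and 180 dpn had not.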

How the results depend on the processing

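Of 145 recomputed values over 8 results, 116 moved little, meaning that a count, compared by its total only, kept within 1.5 times and a factor within the SD of 0.225 (log2) of the left-out factors. The split into lower and higher did move under scaling by the members: from 115 and 9 to 77 and 77 (LR against LT), from 33 and 8 to 10 and 19 (LR 120 to 180 dpn) and from 117 and 39 to 87 and 80 (LR 90 to 120 dpn). The number of members past 2-fold was 116 to 144 in LR 120 dpn and 121 to 143 in LR 180 dpn under 9 alternatives each, and 283 and 272 of 400 when the set was doubled to 400 members. Leaving out each of the 18 libraries gave 133 to 147 and 129 to 143. The factors of LR 120 and 180 dpn were 0.387 and 0.342 with a minimum of 50 TPM, 0.522 and 0.409 after TMM scaling, 0.171 and 0.153 from LT alone, 0.348 and 0.376 from LR alone, 0.153 and 0.147 as a mean of log2 ratios, 0.648 and 0.595 by TMM, and 0.702 and 0.651 by the median of ratios. As a sum they were 1.06, the 1 reversal, and 0.675, and without the most abundant member, chosen after seeing the data, 0.804 and 0.657. Leave-one-out factors ran from 0.177 to 0.328 and from 0.170 to 0.265, and 0.177 came without LT 28 dpn, over 1.5 times below 0.285. The cause was not tested. LR against LT gave 108 to 154 members called under 6 alternatives (DESeq2 113, age as a replicate block 110). Without 1 library, the lone library of a breed is assumed to vary like the other pair, so only fold changes are given. The median log2 fold change then ran from −2.40 to −2.04 for the members and from −1.50 to −1.31 for the eligible tags. From LR 120 to 180 dpn 17 members were called at a log2 ratio above 1 and 0 with the assumed coefficient of variation, against 41, and from 90 to 120 dpn 75 with the latter, against 156. At a log2 ratio above 1 from 120 to 180 dpn 7.39% of the members were lower and 2.27% higher, beside 10.6% and 6.87% of the eligible tags. With the assumed coefficient 1 of 2168 eligible tags was called there. Reading 0 as 3 counts and counting 16 comparisons (182384 calls) were also chosen after seeing the data and left the directions of the factors and of the totals as they were. With 1 pool per breed and stage, no result has a replicate check.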
